A study of Caenorhabditis elegans with 6 samples.

Results

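The heterochronic genes of Caenorhabditis elegans set the order and timing of larval cell fates, and 8 of them are described here in whole adult worms kept on 1 of 2 bacterial diets. They were taken by gene symbol from the deposited tables, as hbl-1, lin-14, lin-28, lin-29, lin-41, lin-42, lin-46 and dre-1, and all 8 were found among 18811 genes. The set was selected on earlier results of the same libraries, namely the fold changes between the diets, in which hbl-1 stood among the genes furthest below BW25113. The fold changes of the members are therefore a description, and nothing is read from how many of them differed.

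In the wild-type pathway, LIN-14, LIN-28 and HBL-1 hold the epidermal stem cells, called seam cells, in early larval programmes. The microRNAs lin-4 and let-7 and the relatives of let-7 switch these factors off in turn by pairing with the 3′ untranslated regions of their mRNAs. LIN-41 then keeps LIN-29 low until the last larval stage, when LIN-29 starts the change from larval to adult epidermis. Mature microRNAs were not analysed here.

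Of the 6 libraries, 3 came from worms fed the Escherichia coli strain labelled purE, described as a mutant, and 3 from worms fed Escherichia coli BW25113, a common laboratory strain. Worms of both groups grew at 20 °C on nematode growth medium, were moved to the test bacteria at larval stage 4, and gave total RNA as synchronized adults. The sources used here do not give the worm strain, the age of the adults or the lesion in purE, a bacterial gene of purine synthesis. The labels do not say whether replicates were separate cultures, so p-values measure only the spread between these samples, which may be technical.

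Total estimated counts lay between 21880610 and 22607925 per library. On the first principal component of log2 CPM (read count scaled to library size), purE replicate 2 stood at 120 and purE replicate 3 at 51.03, while purE replicate 1 stood at -26.9, nearer to the BW25113 libraries at -40.5 to -59.0. All 6 vitellogenin genes, which encode the yolk proteins of adults, were detected, and their summed level was 28808 to 57311 CPM on purE and 57916 to 74371 CPM on BW25113. The adult cuticle collagen col-19, named after its values were seen, lay between 2323 and 5409 CPM on purE and between 3342 and 4090 CPM on BW25113, so adult markers were present in every library. In whole worms, fewer cells of a type and less RNA per cell cannot be told apart.

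The annotation of build WBcel235 places the genes on 4 chromosomes. On X lie hbl-1 (5822142 to 5827755, forward strand) and lin-14 (11465560 to 11485871, forward strand). On II lie lin-29 (11917642 to 11935343, reverse strand) and lin-42 (1233236 to 1252359, reverse strand). On I lie lin-28 (8407630 to 8410804, reverse strand) and lin-41 (9334800 to 9342496, reverse strand). On V lie dre-1 (6533614 to 6546500, reverse strand) and lin-46 (12968855 to 12970730, forward strand).

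A feature that the choice by symbol did not use is the length of the annotated 3′ untranslated region, the part of the mRNA that microRNAs bind. The longest such region was 1604 bases in lin-14, 1394 in hbl-1, 1165 in lin-41, 939 in lin-42, 697 in lin-29, 531 in lin-28 and 376 in dre-1. These 7 genes lay between the 85.46 (dre-1) and 99.46 (lin-14) percentile of the 16068 measured genes that have an annotated region, whose median was 131 bases. The exception was lin-46, at 153 bases. The length is a description of the annotation and was not related to any measured level.

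Levels are compared between genes in FPKM, the deposited read count scaled by the authors to transcript length and library size. On BW25113 the order of means was lin-41 at 57.05 ± 17.1, lin-28 at 13.7 ± 4.48, lin-42 at 11.3 ± 3.80, hbl-1 at 7.70 ± 2.71, lin-14 at 4.49 ± 0.741, dre-1 at 3.71 ± 0.397, lin-29 at 1.44 ± 0.469 and lin-46 at 0.24 ± 0.0889 FPKM (SD, n = 3 each). From lin-28 down to dre-1 each gene overlapped the next in its library values, while lin-41 lay above and lin-29 and lin-46 below without overlap. The order depended on the diet. On purE, lin-42 came first at 45.6 ± 56.2 FPKM, overlapping lin-41 at 37.03 ± 15.04 FPKM, and its mean over all libraries other than purE replicate 2 was 12.1 FPKM. It was hbl-1 that changed place most, at 1.11 ± 0.581 FPKM on purE, below lin-29 without overlap, and at 7.70 ± 2.71 FPKM on BW25113, above lin-29 without overlap (SD, n = 3 each).

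**Figure D1:**
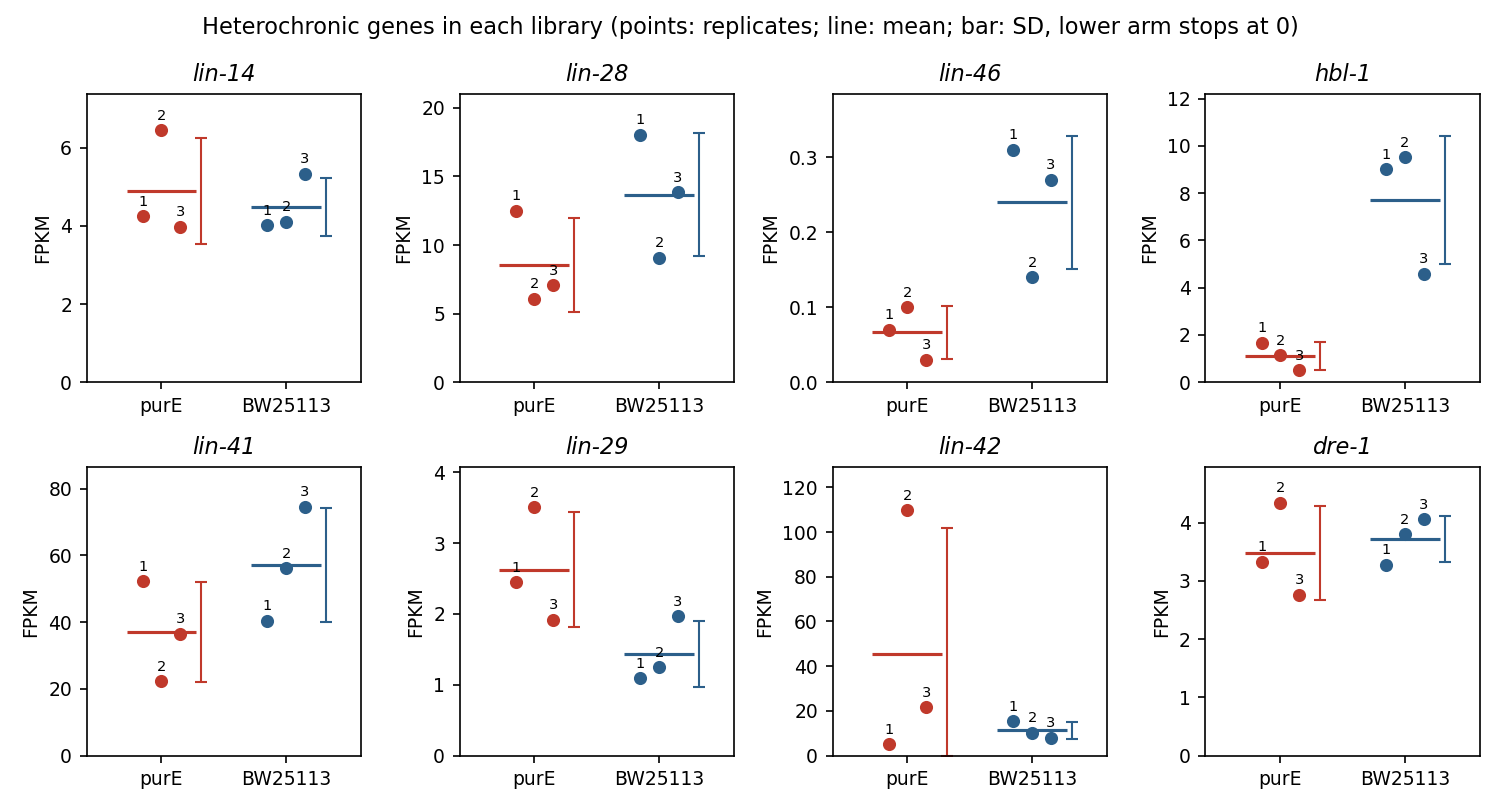
FPKM (vertical axis, separate linear scale per gene) of the 8 heterochronic genes in each library, with purE at left and BW25113 at right; numbers mark the replicate, lines the mean and bars the SD, whose lower arm stops at 0. The purE points of hbl-1 and lin-46 all lie below the BW25113 points, and lin-42 reaches 109.76 FPKM in purE replicate 2 alone.

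The comparison of purE with BW25113 asks how this bacterial gene bears on the host. Over the whole table, 0 of 12144 tested genes, or 0%, passed a Benjamini-Hochberg adjusted p of 0.05 in the quasi-likelihood test of edgeR, and 2004 had an unadjusted p under 0.05. DESeq2 called 760 genes higher, or 6.26%, and 186 lower, or 1.53%, and limma-voom called 0. Of the 8 members, 7 had enough reads to be tested and lin-46 did not. Among these 7, 0 passed in edgeR and limma-voom, and 1, hbl-1, passed as lower in DESeq2. The 7 log2 fold changes had a median of 0.05, with 4 above and 3 below 0, and the median over all genes tested was 0.03.

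The early-acting genes come first. HBL-1 is a zinc finger transcription factor related to Drosophila Hunchback that maintains early larval seam cell divisions and delays the adult programme. Its gene had 167, 110 and 50 reads in purE replicates 1, 2 and 3, against 893, 941 and 457 reads in BW25113 replicates 1, 2 and 3. In FPKM the values were 1.67, 1.14 and 0.51 on purE and 9.01, 9.51 and 4.59 on BW25113. Every purE library lay below every BW25113 library, and the highest purE value was less than the lowest BW25113 value on either scale. Of all genes tested, 6.68% had all purE libraries below all BW25113 libraries in CPM.

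On CPM scaled with TMM factors (a correction for library composition), hbl-1 averaged 4.87 ± 1.91 on purE and 33.6 ± 14.1 on BW25113 (SD, n = 3 each). The log2 fold change in edgeR was -2.78 ± 0.46 (SE), or 6.87-fold lower on purE. It stood at rank 47 of 12144 from the lowest fold change. It was low in purE replicate 1 as well, at -2.33 on the log2 scale relative to the BW25113 mean, against -2.40 and -3.49 in purE replicates 2 and 3. With each library left out in turn the log2 fold change stayed between -3.17 and -2.49, and without purE replicate 1 edgeR called the gene lower, beside 3.48% of 12811 genes called lower.

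LIN-28, an RNA-binding protein that blocks the maturation of let-7, was lower on average on purE without separating the groups. Its FPKM values were 12.49, 6.08 and 7.09 in purE replicates 1, 2 and 3, against 18.04, 9.08 and 13.86 in BW25113 replicates 1, 2 and 3. BW25113 replicate 2 lay below purE replicate 1, and the log2 fold change was -0.61 ± 0.33 (SE). It became -0.33 without BW25113 replicate 1, the highest library, and -0.91 without BW25113 replicate 2. It stayed below 0 with each library left out. The gene shares 16 exonic bases with F02E9.1 on the other strand, and without a stated strand setting reads there cannot be assigned.

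LIN-14, a nuclear protein that specifies the earliest larval fates and was the first known microRNA target, differed little. It had 4.24, 6.45 and 3.98 FPKM in purE replicates 1, 2 and 3, against 4.01, 4.11 and 5.34 FPKM in BW25113 replicates 1, 2 and 3. In FPKM the highest library was purE replicate 2 and the lowest purE replicate 3. On TMM-scaled CPM the values were 11.7, 24.8 and 15.8 on purE and 13.3, 14.0 and 15.2 on BW25113, so purE replicate 1 was lowest. On either scale the purE libraries enclosed the BW25113 range. The log2 fold change was 0.30 ± 0.32 (SE) and turned to -0.04 without purE replicate 2. Introns and exons of lin-14 hold 5 annotated non-coding RNA genes, 2 of them small nucleolar RNA genes inside its exons.

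The protein LIN-46 is related to the scaffold protein gephyrin, acts downstream of LIN-28 and opposes HBL-1. Its gene was close to the detection limit, with 2, 3 and 1 reads in purE replicates 1, 2 and 3 and 9, 4 and 8 reads in BW25113 replicates 1, 2 and 3. A count of 3, the most that 0 observed reads allow, corresponds to 0.110 to 0.160 CPM in these libraries. Summed over libraries, 6 reads on purE and 21 on BW25113 gave a ratio of 0.309, with an exact 95% interval of 0.102 to 0.793 that covers counting error only. All purE libraries lay below all BW25113 libraries, as for hbl-1, but by as little as 1 read.

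The later-acting genes differed in direction. LIN-41, a TRIM-NHL RNA-binding protein, represses lin-29 in the larval epidermis and also keeps oocytes from maturing early. It had 52.3, 22.23 and 36.55 FPKM in purE replicates 1, 2 and 3, against 40.43, 56.13 and 74.59 FPKM in BW25113 replicates 1, 2 and 3. The groups overlapped, with purE replicate 2 lowest and BW25113 replicate 3 highest, and the log2 fold change was -0.53 ± 0.31 (SE).

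On the log2 CPM scale, the libraries with less lin-41 were also those with a lower mean level of oocyte markers. The mean of 17 oocyte and germline markers, relative to the BW25113 mean, was -0.20, -1.04 and -0.23 on the log2 CPM scale in purE replicates 1, 2 and 3, against -0.30, 0.12 and 0.18 in BW25113 replicates 1, 2 and 3. On the same scale lin-41 stood at -0.29, -1.05 and -0.29 on purE and at -0.39, 0.12 and 0.27 on BW25113. The largest gap between these values in a library was 0.0926. All 17 oocyte markers were detected, and their summed level ran from 7369 to 12564 CPM on purE and from 13660 to 17302 CPM on BW25113. By this sum the order differed from that of lin-41. BW25113 replicate 1, at 13927 CPM, lay above purE replicates 1 and 3, at 11479 and 12564 CPM, but had less lin-41 on the log2 CPM scale. In FPKM its lin-41 value of 40.43 was below that of purE replicate 1, at 52.3, but above that of purE replicate 3, at 36.55. The part of oocyte content in the lin-41 values was not tested.

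LIN-29 is a zinc finger transcription factor that starts the larval-to-adult switch, including adult collagen expression and the end of moulting. The gene had 2.45, 3.51 and 1.92 FPKM in purE replicates 1, 2 and 3, against 1.09, 1.25 and 1.97 FPKM in BW25113 replicates 1, 2 and 3. In FPKM the groups overlapped by a narrow margin, since purE replicate 3 lay just below BW25113 replicate 3. On TMM-scaled CPM they did not overlap, with 4.59, 9.13 and 5.13 on purE and 2.46, 2.91 and 3.81 on BW25113, a separation shared by 13.1% of all genes tested. The log2 fold change was 1.03 ± 0.40 (SE), or 2.05-fold, and 0.67 without purE replicate 2. Reads numbered 55 to 173 per library.

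A ratio of 2 genes within a library does not depend on library scaling. The ratio of lin-41 to lin-29 in FPKM was 21.3, 6.33 and 19.04 in purE replicates 1, 2 and 3, against 37.1, 44.9 and 37.9 in BW25113 replicates 1, 2 and 3. That of hbl-1 to lin-29 was 0.682, 0.325 and 0.266 on purE and 8.27, 7.61 and 2.33 on BW25113. Both ratios were lower in every purE library than in any BW25113 library. Of 11999 genes with a value in all libraries, 43.8% also had a lower ratio to lin-29 in all purE libraries, so a lower ratio to lin-29 was common. Both ratios were chosen after the values were seen.

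**Figure D2:**
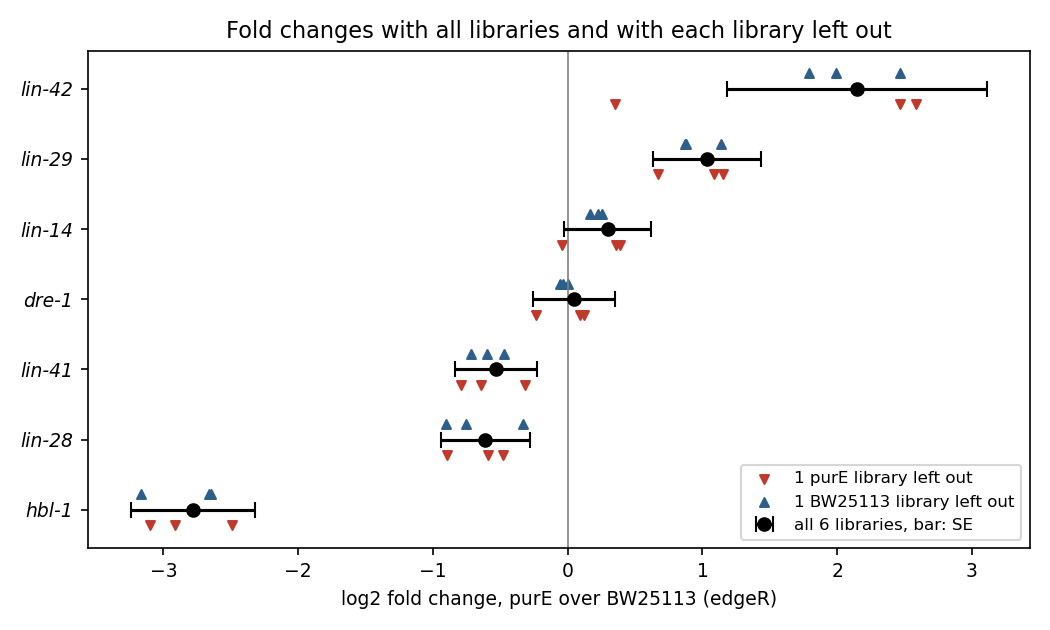
Log2 fold change of purE over BW25113 in edgeR (horizontal axis) for the 7 tested heterochronic genes; black points and bars give the value and SE with all 6 libraries, triangles the value with 1 library left out. The values of hbl-1 stay between -3.17 and -2.49, while lin-42 drops to 0.35 when purE replicate 2 is left out.

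The gene lin-42, the worm relative of the Drosophila clock gene period, cycles with the larval moults and dampens microRNA transcription. It showed the widest spread of the 8, with 5.22, 109.76 and 21.72 FPKM in purE replicates 1, 2 and 3, against 15.47, 10.24 and 8.07 FPKM in BW25113 replicates 1, 2 and 3. Replicate 2 of purE was the highest library and replicate 1 of purE the lowest, 28.9 times apart in CPM, with all BW25113 libraries between purE replicates 1 and 3. The log2 fold change of 2.15 ± 0.96 (SE) therefore rested on 1 library. It was 0.35 without purE replicate 2 and 2.58 without purE replicate 1, where edgeR called lin-42 higher at an adjusted p of 0.0197, beside 11% of 12811 genes called higher. The adjusted p of lin-42 over all alternatives ran from 0.0197 to 0.951.

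Moulting genes followed the same order of purE libraries. The mean of 17 tested moulting genes, relative to the BW25113 mean, was -0.95, 1.73 and 0.27 on the log2 CPM scale in purE replicates 1, 2 and 3, against 0.40, 0.09 and -0.49 in BW25113 replicates 1, 2 and 3. For lin-42 the values were -1.33, 3.51 and 1.20 on purE and 0.62, 0.01 and -0.63 on BW25113, so purE replicate 2 was highest and purE replicate 1 lowest in both, and only purE replicate 3 and BW25113 replicate 1 changed places. Of the moulting genes, 0 passed in edgeR, and an unadjusted p under 0.05 was found for 3 that were higher and 0 that were lower, where 12.7% of all genes were higher and 3.81% lower. With the smallest p were qua-1, a hedgehog-related gene needed for moulting, at a log2 fold change of 2.62 ± 1.04 (SE), and mlt-4, at 1.29 ± 0.56 (SE). All 18 listed moulting genes were detected, with a summed level of 59.2 to 538 CPM on purE and 113 to 194 CPM on BW25113. The part of moulting activity in the lin-42 values was not tested.

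The 2 deposited columns carry a further measure for lin-42. Read count divided by FPKM and by the library total gives the transcript length implied by the authors' scaling. Over 6047 genes with enough reads the median ratio of the highest to the lowest implied length among libraries was 1.001. That the length follows the mix of transcripts of a gene is an assumption, since the sources do not state how it was set. For lin-42 this implied length was 2390, 2365 and 2350 bases in purE replicates 1, 2 and 3, against 2601, 2510 and 2440 bases in BW25113 replicates 1, 2 and 3. The purE values were all below the BW25113 values, by more than the rounding of FPKM, with means of 2368 ± 20.1 and 2517 ± 80.7 bases (SD, n = 3 each). The difference was -149 bases. The measure was chosen after the values were seen, and no test of it is given.

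Of 6047 genes with at least 100 reads and 1 FPKM in every library, 1.14% showed such a separation in this direction. In 90% of these genes the ratio of highest to lowest was at most 1.013. Most thus had a nearly constant implied length, and the share among genes whose implied length varies is not given. The highest implied length of lin-42 was 1.11 times the lowest, a spread that 98.0% of these genes did not exceed. Unlike its level, the implied length did not set purE replicate 1 apart from purE replicates 2 and 3. For lin-14, lin-28, lin-41 and dre-1, the other members with enough reads, the ratio of highest to lowest was 1.01 or less.

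The annotation lists 7 coding transcripts of lin-42, of which transcript a has 2320 spliced bases and transcript b 2753. Transcript a holds only the 3′ part of the gene (1233236 to 1236969) and transcript b extends to 1244035. Among 1085 genes with 1 annotated transcript, the spliced length exceeded the implied length in BW25113 replicate 1 by a median of 46.0 bases (quartiles 2.3 and 49.0). This median would put transcript a at 2274 and transcript b at 2707 on the implied scale. All 6 libraries lay between these lengths. The purE libraries and BW25113 replicate 3 were nearer to transcript a, and BW25113 replicates 1 and 2 nearer to transcript b. With the lower quartile as the offset, BW25113 replicate 2 would be nearer to transcript a. Which transcripts the authors' annotation held is not given in the sources used here, and the shorter transcripts could also lower the implied length, so no share of transcripts was computed.

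**Figure D3:**
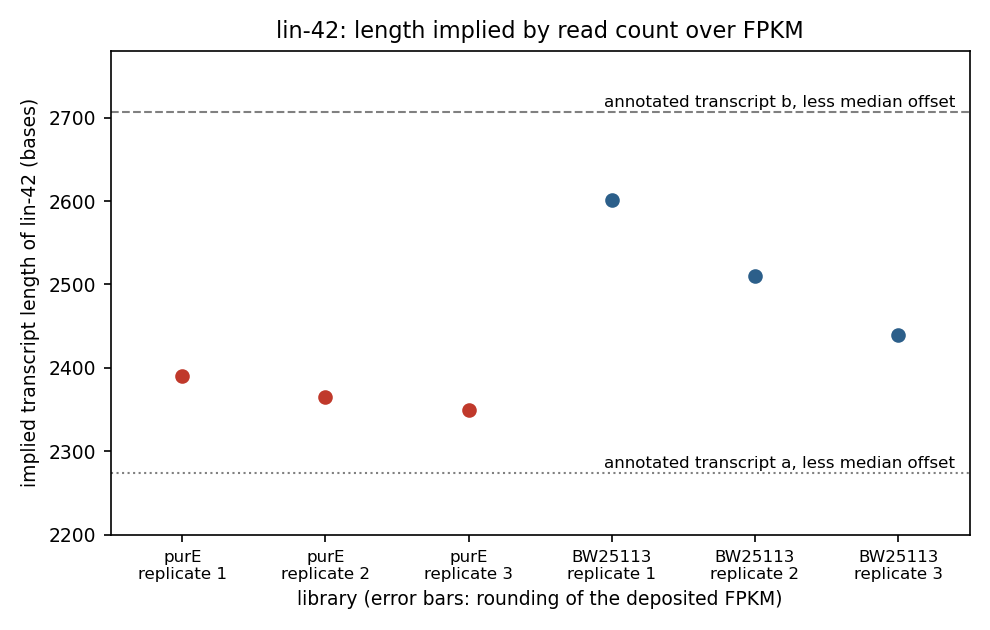
Transcript length of lin-42 in bases (vertical axis, not starting at 0) implied by read count over FPKM in each library; lines mark annotated transcripts b and a after subtracting the median offset of genes with 1 transcript. The purE libraries lie at 2350 to 2390 bases and the BW25113 libraries at 2440 to 2601 bases.

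The last member, dre-1, encodes the F-box subunit of an SCF ubiquitin ligase that times the change of larval fates, with the transcription factor BLMP-1 among its targets. It had 3.33, 4.34 and 2.76 FPKM in purE replicates 1, 2 and 3, against 3.28, 3.80 and 4.06 FPKM in BW25113 replicates 1, 2 and 3. The purE libraries enclosed the BW25113 range, and the log2 fold change of 0.05 ± 0.31 (SE) took either sign with scaling and with the library left out, from -0.24 to 0.12. Its target gene blmp-1 had a log2 fold change of 0.27 ± 0.42 (SE) and was chosen after its values were seen. Of 4 genes of the SCF core, 0 passed in edgeR and 0 had an unadjusted p under 0.05. The scaffold gene cul-1 had -0.40 ± 0.27 (SE) and the adaptor gene skr-1 0.20 ± 0.22 (SE).

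Other genes of the timing pathway had a median log2 fold change close to that of all genes, with single values from -0.54 (myrf-2) to 1.00 (nhr-85). Of 14 listed, all were tested, 7 lay above and 7 below a log2 fold change of 0 around a median of 0.06, and 0 passed in edgeR or DESeq2, with 0 at an unadjusted p under 0.05. The 2 with the smallest p were lin-66, which represses lin-28, at -0.53 ± 0.25 (SE), and nhr-85, a nuclear receptor gene that drives the pulsed transcription of lin-4, at 1.00 ± 0.50 (SE). For lin-66 the values were 35.7, 54.6 and 45.5 CPM on purE and 57.4, 63.2 and 75.9 CPM on BW25113, without overlap. For nhr-85 they were 2.54, 6.28 and 2.89 CPM on purE and 2.86, 1.48 and 1.49 CPM on BW25113, with overlap.

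Of 13 genes listed for microRNA processing, effectors and turnover, 12 were found and tested, and all 12 had log2 fold changes below 0. Their median was -0.37 beside 0.03 for all genes, and 0 passed in edgeR or DESeq2. At an unadjusted p under 0.05, 2 were lower and 0 higher, beside 3.81% and 12.7% of all genes. They were the Argonaute gene alg-2, at -0.74 ± 0.24 (SE), and ain-1, a partner of the Argonautes, at -0.64 ± 0.24 (SE). The gene alg-2 had 56.5, 46.5 and 58.9 CPM on purE and 103, 92.9 and 73.96 CPM on BW25113. The other Argonaute gene on this list, alg-1, had a log2 fold change of -0.02 ± 0.31 (SE) and was chosen after its values were seen. For 4 of the 12 all purE libraries lay below all BW25113 libraries, beside 6.68% of all genes. The list's mean was lowest in purE replicate 2, at -0.58 on the log2 CPM scale, the library with the lowest oocyte markers, and the part of oocyte content was not tested.

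Genes downstream of LIN-41 or LIN-29 did not move as a block. Of 6 listed, 5 were tested, 4 of them positive and 1 negative, with a median log2 fold change of 0.82. The negative gene, aff-1, had -0.98 ± 0.94 (SE) and was named after its values were seen. The list was not split by direction of control, so its signs and median are a description only. In edgeR 0 passed, and in DESeq2 1 passed as higher, beside 6.26% of all genes. The larval collagen gene col-17 had 10.8, 1002 and 238 CPM in purE replicates 1, 2 and 3, against 12.4, 5.12 and 20.3 CPM in BW25113 replicates 1, 2 and 3, a log2 fold change of 5.04 ± 1.34 (SE) present in purE replicates 2 and 3 only. The adult collagen gene col-19, which LIN-29 activates, had 0.02 ± 0.34 (SE) and was named after its values were seen. The transcription factor gene mab-3, repressed by LIN-41 in the male tail, had 0.404, 2.27 and 0.588 CPM on purE and 0.224, 0.231 and 0.267 CPM on BW25113, a log2 fold change of 2.13 ± 0.72 (SE) at low read numbers. The LIN-29 cofactor gene mab-10, also on the list of other timing genes, had 0.82 ± 0.45 (SE) and was named after its values were seen.

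Regulators of the seam cells and epidermis, the tissue in which the timing pathway is best known, went both ways. Of 14 listed, 11 were tested, 7 of them negative and 4 positive, with a median log2 fold change of -0.73 beside 0.03 for all genes, and 0 passed in edgeR. At an unadjusted p under 0.05, 5 were lower and 1 higher, where 3.81% of all genes were lower and 12.7% higher. DESeq2 called 2 lower and 1 higher, beside 1.53% and 6.26% of all genes. The GATA factor gene egl-18, which maintains seam cell fate, had 27.49, 15.995 and 31.18 CPM on purE and 56.8, 59.3 and 57.1 CPM on BW25113. The nuclear receptor gene nhr-25, needed for epidermal development and moulting, had 1.25, 1.58 and 1.39 CPM on purE and 4.65, 4.52 and 2.98 CPM on BW25113. In egl-18 and nhr-25, as in hbl-1, the purE libraries all lay below the BW25113 libraries, with log2 fold changes of -1.21 ± 0.29 and -1.52 ± 0.38 (SE). The gene grd-10, named after its values were seen, went the other way without overlap, at 21.9, 34.8 and 45.4 CPM on purE and 10.5, 13.8 and 18.6 CPM on BW25113, a log2 fold change of 1.25 ± 0.35 (SE). The 14 genes were all detected, with a summed level of 107 to 147 CPM on purE and 179 to 197 CPM on BW25113, and the part of epidermal or embryonic RNA in the hbl-1 values was not tested.

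As background, hbl-1 is also transcribed in embryos, which adult hermaphrodites hold in the uterus. Of 9 early embryo markers found in the tables, 3 had enough reads to be tested, and 0 of these passed in edgeR. All 3 were lower in all purE libraries than in any BW25113 library, as were 6.68% of all genes tested. Their mean relative to BW25113 was -1.26, -3.30 and -1.41 on the log2 CPM scale in purE replicates 1, 2 and 3, against 0.40, -0.12 and -0.28 in BW25113 replicates 1, 2 and 3. All 9 had reads in at least 1 library, and their summed level was 0.633 to 3.01 CPM on purE and 6.37 to 10.1 CPM on BW25113. The marker vet-6 had a log2 fold change of -2.33 ± 0.76 (SE) and pes-10 of -1.95 ± 0.64 (SE). The embryo markers were lowest in purE replicate 2, whereas hbl-1 was lowest in purE replicate 3. In purE replicate 2, pes-10 and vet-6 stood at 0.053 CPM each, below the 0.158 CPM that 3 reads correspond to. With so few reads, nothing is read from this difference in order. The part of embryo content in the hbl-1 values was not tested.

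Cuticle collagens and sperm markers marked out the same purE libraries as lin-42. Relative to the BW25113 mean, 11 collagens averaged -0.63, 4.03 and 2.38 on the log2 CPM scale in purE replicates 1, 2 and 3, against 0.41, -0.60 and 0.19 in BW25113 replicates 1, 2 and 3. For 8 tested sperm markers the means were 0.56, 3.51 and 2.46 on purE and -0.27, -0.33 and 0.60 on BW25113. In purE replicate 1 both means lay within or below the BW25113 range. Single sperm markers differed from that mean, since for 6 of the 8 every purE library lay above every BW25113 library, beside 13.1% of all genes. Of the 11 collagens, 10 had a log2 fold change above 0 and 1 below, with a median of 4.84. DESeq2 called 7 of them higher and 1 lower, beside 6.26% and 1.53% of all genes. The strut collagen gene bli-2 had 5.68 ± 1.43 (SE), and the exception was the body-shape collagen gene dpy-17, at -4.37 ± 0.84 (SE). In dpy-17, as in hbl-1, every purE library lay below every BW25113 library, as for 6.68% of all genes tested. The values of dpy-17 were 25.2, 7.60 and 6.47 CPM on purE and 494, 260 and 62.4 CPM on BW25113. The major sperm protein genes msp-3 and msp-31, whose near-identical copies make single values uncertain, had 3.06 ± 0.67 and 3.28 ± 0.75 (SE). Summed sperm markers ran from 517 to 4062 CPM on purE and from 249 to 428 CPM on BW25113, with 11 of 20 listed symbols found in the tables. Among oocyte markers all 17 lay below 0, with oma-1 at -0.62 ± 0.28 and puf-5 at -0.76 ± 0.35 (SE), and among vitellogenins all 6 did, with vit-4 at -0.73 ± 0.38 and vit-3 at -0.75 ± 0.39 (SE). In each of these lists 0 genes passed in edgeR.

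**Figure D4:**
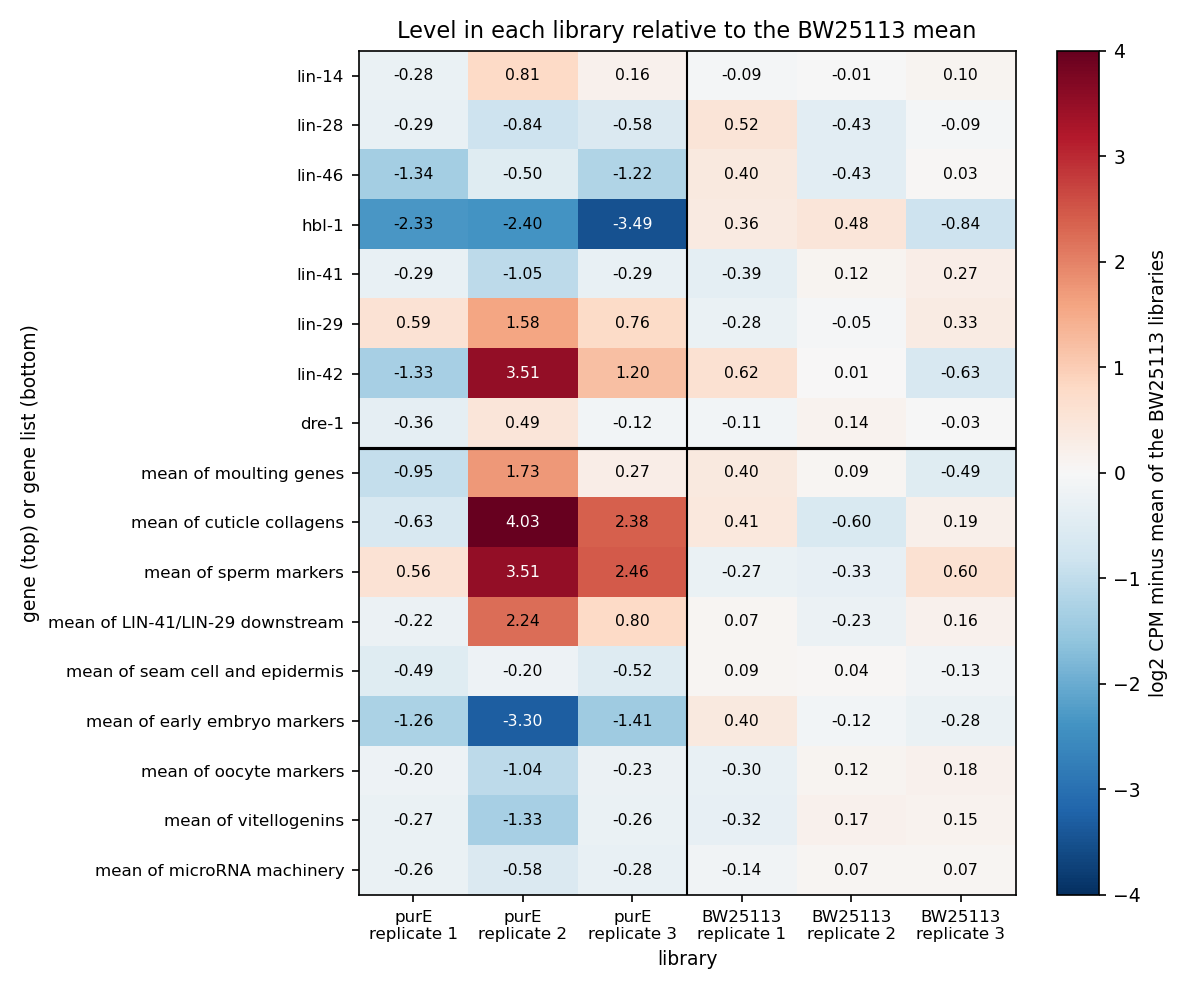
Level of each heterochronic gene (top rows) and mean of the tested genes of each list (bottom rows) in every library (columns), as log2 CPM minus the mean of the BW25113 libraries. In hbl-1 all purE libraries are low, from -3.49 to -2.33, while lin-42, moulting genes and collagens are high in purE replicate 2 and low in purE replicate 1.

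**Figure D5:**
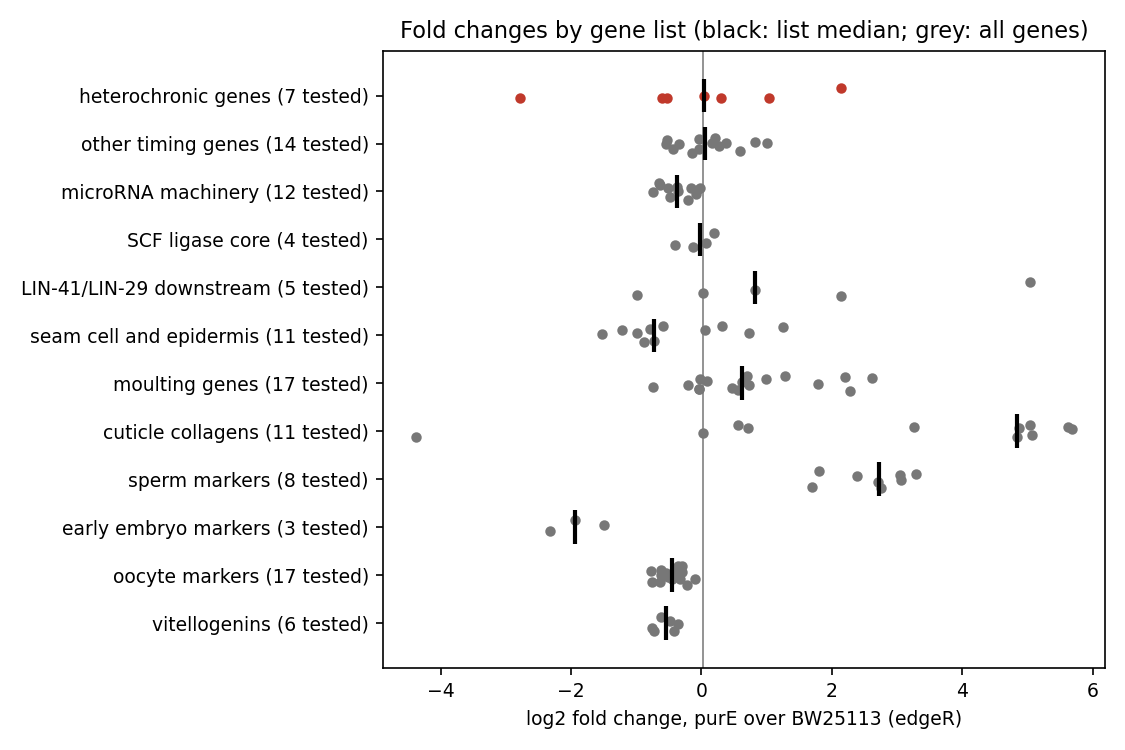
Log2 fold change of purE over BW25113 in edgeR (horizontal axis) for the tested genes of each list (rows); black bars mark list medians and the grey line the median of all genes, 0.03. The heterochronic genes spread from -2.78 to 2.15 around a median of 0.05, whereas all 12 genes of the microRNA machinery lie below 0.

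For each member, the 3 tested genes with the most similar log2 CPM over the 6 libraries were listed by Pearson's r as a description, since with 6 libraries and 12144 genes high values arise readily. Nearest to hbl-1 were ceh-34, a homeobox gene (r = 0.99, Spearman's rho = 1, log2 fold change of -1.05), ptp-4 (r = 0.99) and F07H5.13 (r = 0.99). Nearest to lin-41 were attf-2, adr-1, which acts in RNA editing, and let-418, a chromatin remodeller gene, with r from 0.995 to 0.997 and rho = 1, and with log2 fold changes of -0.44, -0.44 and -0.63. Nearest to lin-42 were F46G11.6, H03E18.1 and T19B10.2, with log2 fold changes of 2.48, 1.85 and 1.20. The genes nearest to lin-28 were tmem-208, pid-1, which acts in the piRNA pathway, and pabp-2, a poly(A)-binding protein gene, with log2 fold changes of -0.29, -0.36 and -0.42.

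Those nearest to lin-29 were C14H10.3, W01B6.6 and W03F8.6, with log2 fold changes of 0.63, 2.31 and 1.58. The set for lin-14 was Y47D9A.1, aagr-4 and shc-1, with 0.23, 0.95 and 0.22. The set for dre-1 was W06H8.6, ins-4, an insulin-like peptide gene, and atrn-1, with 0.08, 0.19 and 0.10. For lin-46, with its few reads, the nearest genes were sptf-1, zig-10 and W10D9.3, at r = 0.98, 0.98 and 0.97. No gene was among the nearest of more than 1 member, and no member was among the nearest of another.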

How the data were processed

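Whole-body RNA of adult worms was sequenced in 6 libraries, 3 per diet, grouped and numbered by title. Per the file headers, the authors deposited estimated counts of reads per gene, of which 91.0% to 92.2% in a library were whole, without scaling. FPKM values, scaled by the authors to length and library size, stand in the same tables per the file headers. WBcel235 is the build named in the submitters' processing notes. The sources used here do not give the aligner, counting tool or strand setting.

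Counts were rounded, genes were kept with edgeR's default filter (12144 of 18811) and libraries were scaled with TMM factors (0.844 to 1.20). The purE group was compared with BW25113 with edgeR 4.0.16 in R 4.3.3 (quasi-likelihood, two-sided), and p-values were adjusted by Benjamini-Hochberg over the whole table at a threshold of 0.05. Alternatives used DESeq2 1.42.0 and limma 3.58.1. Log2 CPM had a prior count of 2. Standard errors were derived from each fold change and F value. The biological coefficient of variation was 0.407, and the chi-square per degree of freedom between libraries of a diet was 42.5 to 350, beyond counting error. Implied transcript length was computed per library from counts and FPKM. Coordinates and transcripts came from Ensembl release 115. The fits were also run on simulated data. Recovery of changed genes was required only for edgeR, with large changes and a spread below that of these libraries. No recovery at the spread of these libraries is given here.

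The members, gene lists and tests were chosen with earlier results of these data known. All 8 members were named, with the 2 genes of smallest p per list and the 3 genes most similar to each member; exceptions are stated.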

Additional observations from a re-analysis of the deposited data

How the results depend on the processing

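Alternatives were no low-count filter, at least 1 CPM in 3 libraries, other scalings (DESeq2 size factors, library size alone, upper quartile, the 100 most abundant genes left out), DESeq2, limma-voom, limma on log2(FPKM + 1), the replicate number as a block, and each library left out. Against 0 genes called in edgeR, DESeq2 called 946 and the replicate block 2, and leaving out single libraries gave 0 to 1852, with 1852 without purE replicate 1. Against 0 heterochronic genes called, DESeq2 called 1, hbl-1, and leaving out libraries gave 0 to 2, the 2 being hbl-1 and lin-42 without purE replicate 1. The adjusted p of hbl-1 was 4.86e-06 in DESeq2 and ranged up to 0.485 over the alternatives. The cause of these moves was not tested. In all 16 alternatives hbl-1, lin-28 and lin-41 kept a negative and lin-29 and lin-42 a positive log2 fold change. The sign of lin-14 turned without purE replicate 2 only, where its range over left-out libraries was -0.0433 to 0.39. For dre-1 it turned with DESeq2 size factors (-0.0197), library size alone (-0.0949), the abundant genes left out (-0.0348), DESeq2 (-0.0202), limma-voom (-0.0078) and limma on FPKM (-0.0859), and its range over left-out libraries was -0.24 to 0.12. The FPKM fit moved the median of all genes by -0.14. The fit without a low-count filter gave lin-46 a log2 fold change of -1.65 ± 0.80 (SE). The implied lin-42 length difference, examined after seeing the data, ran from -187.8 to -107.3 bases over left-out libraries. Libraries with the same number did not deviate together, with correlations of -0.15, -0.16 and 0.13, so the numbers were not taken as pairs, and 0 heterochronic genes were called with the replicate block. With fewer than 10 reads per library, depth limits lin-46.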
